A study of Mus musculus with 7 samples.

Results

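The genes described here are 52 DNA replication and S phase genes of the mouse, followed through 7 RNA sequencing libraries of bone marrow-derived macrophages. They were chosen by name, with earlier results of these data known, as origin licensing, helicase, clamp loader, polymerase, nucleotide supply, chromatin, checkpoint, E2F and S phase cyclin genes. All 52 were found among the 23337 genes of each table. Of these, 47 had a mean of at least 1 TPM (a transcript level scaled by gene length and by the library total) and were tested, among 11096 genes tested in all. The other 5 (Cdc6, Orc1, Pole, Ccne2 and E2f7) lay below that level and are given as values only.

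Marrow cells of male mice aged 6 to 8 weeks, wild type or lacking Tgm2 (TGM2KO), were grown into macrophages for 7 days with the growth factor M-CSF at 25 ng/ml. Tgm2 encodes transglutaminase 2, a protein-crosslinking enzyme. The groups were wild-type cells left unstimulated (WT M0, 2 libraries), Tgm2 knockout cells left unstimulated (KO M0, 1 library), wild-type cells given the bacterial product LPS at 10 ng/ml for 6 hours (WT LPS, 2 libraries) and knockout cells given the same LPS (KO LPS, 2 libraries). The labels give neither the strain nor the design of the deletion, and do not say whether replicates came from separate mice or cultures, so p-values speak only to the spread among these libraries, and that spread may be technical. TPM keep no record of sequencing depth, and with the depth unknown no interval for counting error is given.

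A chromosome is copied from origins that are first licensed by loading the MCM2-7 ring, which Cdc6, Cdt1 and the origin recognition complex do in G1, and then fired when Cdc45 and the GINS complex join MCM2-7 to form the moving helicase. Polymerase alpha-primase starts each strand, polymerases delta and epsilon extend it, PCNA holds them on the template, and ribonucleotide reductase and thymidylate synthase supply the building blocks. Many of these genes are switched on by E2F factors at the entry to S phase, and macrophages grown in M-CSF are known to divide until activating signals such as LPS halt the cycle.

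The libraries matched their labels in Tgm2, which stood at 19.4 and 19.2 in KO LPS, 233 and 199 in WT LPS, 50.7 in KO M0 and 433 and 368 TPM in WT M0. In 1 respect the 2 WT LPS libraries went against theirs. Xist, the RNA that coats an inactive X chromosome, was at 47.2 and 55.4 TPM there and at no more than 0.00535 in the other 5, although every sample is labelled male, while Y-linked Eif2s3y was at 32.8 and 37.2 in WT LPS and between 66.1 and 78.3 elsewhere. The WT LPS libraries therefore differed from KO LPS and WT M0 in more than genotype or treatment, and the part of that difference in the comparisons that use them was not tested. All 8 macrophage markers (among them Csf1r, Adgre1 and Cd68) were present, with a summed level between 38580 and 51310 TPM. The 8 markers of marrow progenitors summed to between 2.41 and 3.70 TPM in untreated libraries, 0.714 and 0.874 in KO LPS against 0.269 and 0.355 in WT LPS, and 7 of them never passed 1 TPM in any library.

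After LPS, replication genes stood higher in knockout than in wild-type macrophages. In KO LPS against WT LPS, 16 of the 47 tested members were higher and 0 were lower by limma at an adjusted p of 0.05, where 7.16% of all tested genes were called, with 4.59% higher and 2.58% lower. The 16 were Mcm2, Mcm5, Mcm6, Mcm10, Cdc45, Gins1, Rfc5, Fen1, Chaf1a, Uhrf1, Rrm1, Rrm2, Tyms, Tk1, Brca1 and Clspn, and they came from every role but the polymerases and the E2F and cyclin genes. Those roles had only 10 and 4 tested members, so the absence of calls alone does not set them apart from all tested genes. The median log2 fold change of the 47 was 0.55, beside 0.03 over all tested genes, on the log2(TPM + 1) scale used throughout, which understates the change of low genes. In 37 of the 47 both KO LPS libraries lay above both WT LPS libraries, in 1 (Pcna) both lay below, and in 9 the groups overlapped, where 28.7% of all tested genes separated upward and 21% downward.

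**Figure D1:**
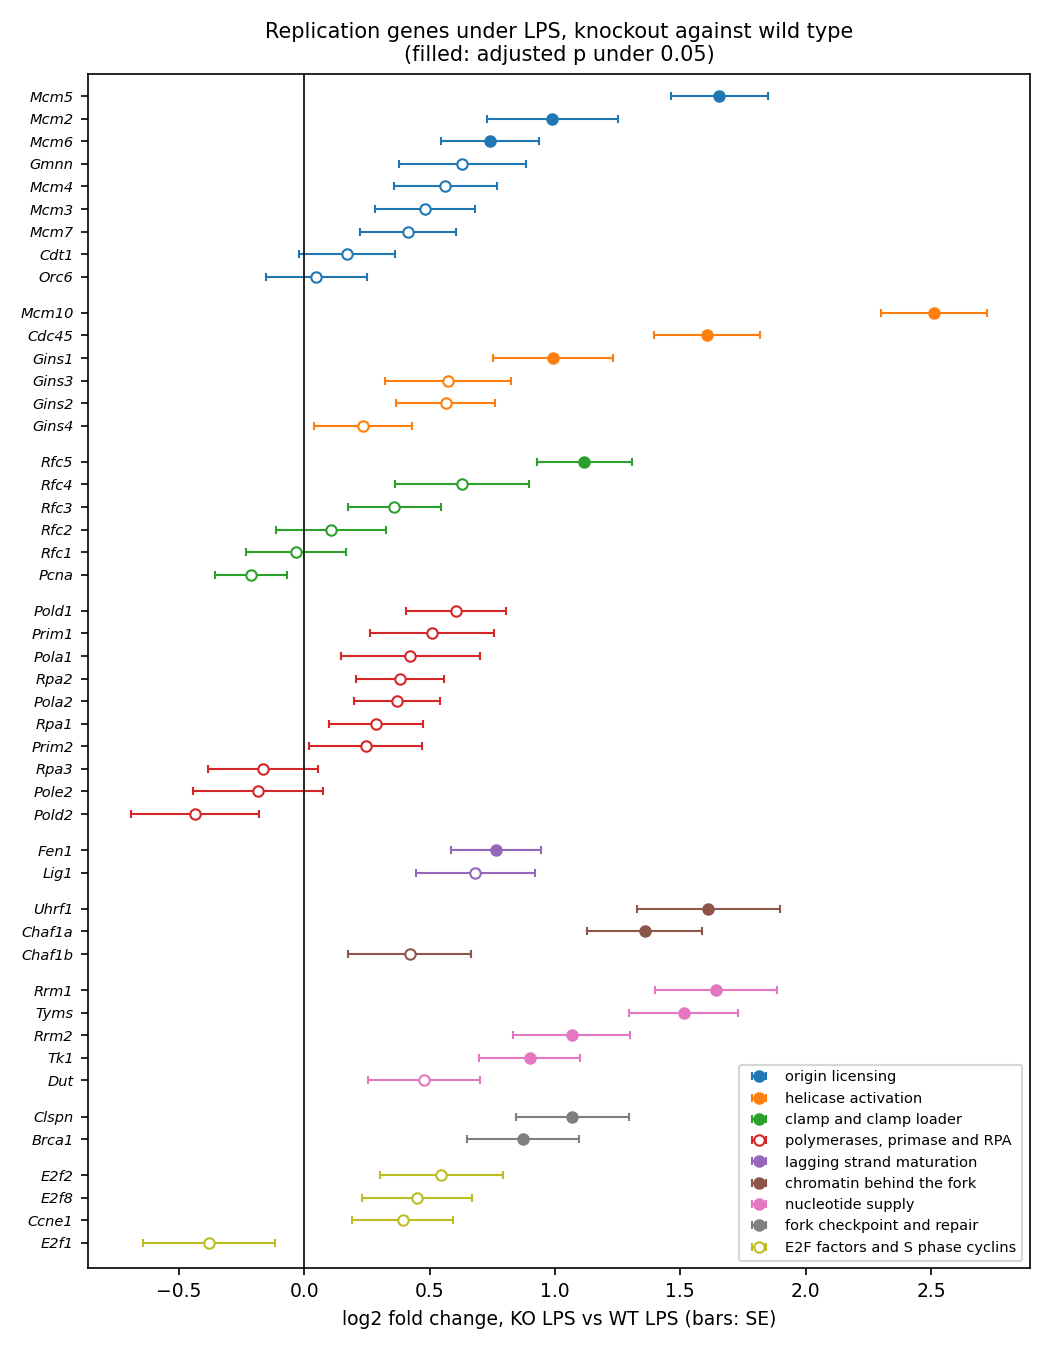
Difference between KO LPS and WT LPS for the 47 tested replication genes (x axis, log2 fold change of TPM + 1, bars of 1 standard error), coloured by role and ordered within it. Filled points passed limma at an adjusted p of 0.05. Mcm10 at 2.51 lies farthest to the right and Pold2 at -0.44 farthest to the left.

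Single libraries weighed on that count. Leaving out replicate 1 or 2 of KO LPS gave 10 and 9, leaving out replicate 1 or 2 of WT LPS gave 8 and 11, and 8 of the 16 (Mcm5, Mcm10, Cdc45, Rfc5, Chaf1a, Uhrf1, Rrm1 and Tyms) passed whichever library was left out. With no filter on low values 9 of the 16 calls were lost (Mcm2, Mcm6, Gins1, Fen1, Chaf1a, Uhrf1, Rrm1, Rrm2 and Tk1), and with quantile normalization 4 (Mcm2, Mcm6, Gins1 and Tk1). The summed TPM of the members other than Pcna was 267.5 and 320.0 in WT LPS, 447.7 and 437.3 in KO LPS, 452.5 and 484.0 in WT M0 and 491.5 in KO M0. In bulk RNA, more cells in S phase and more RNA per cell cannot be told apart.

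**Figure D2:**
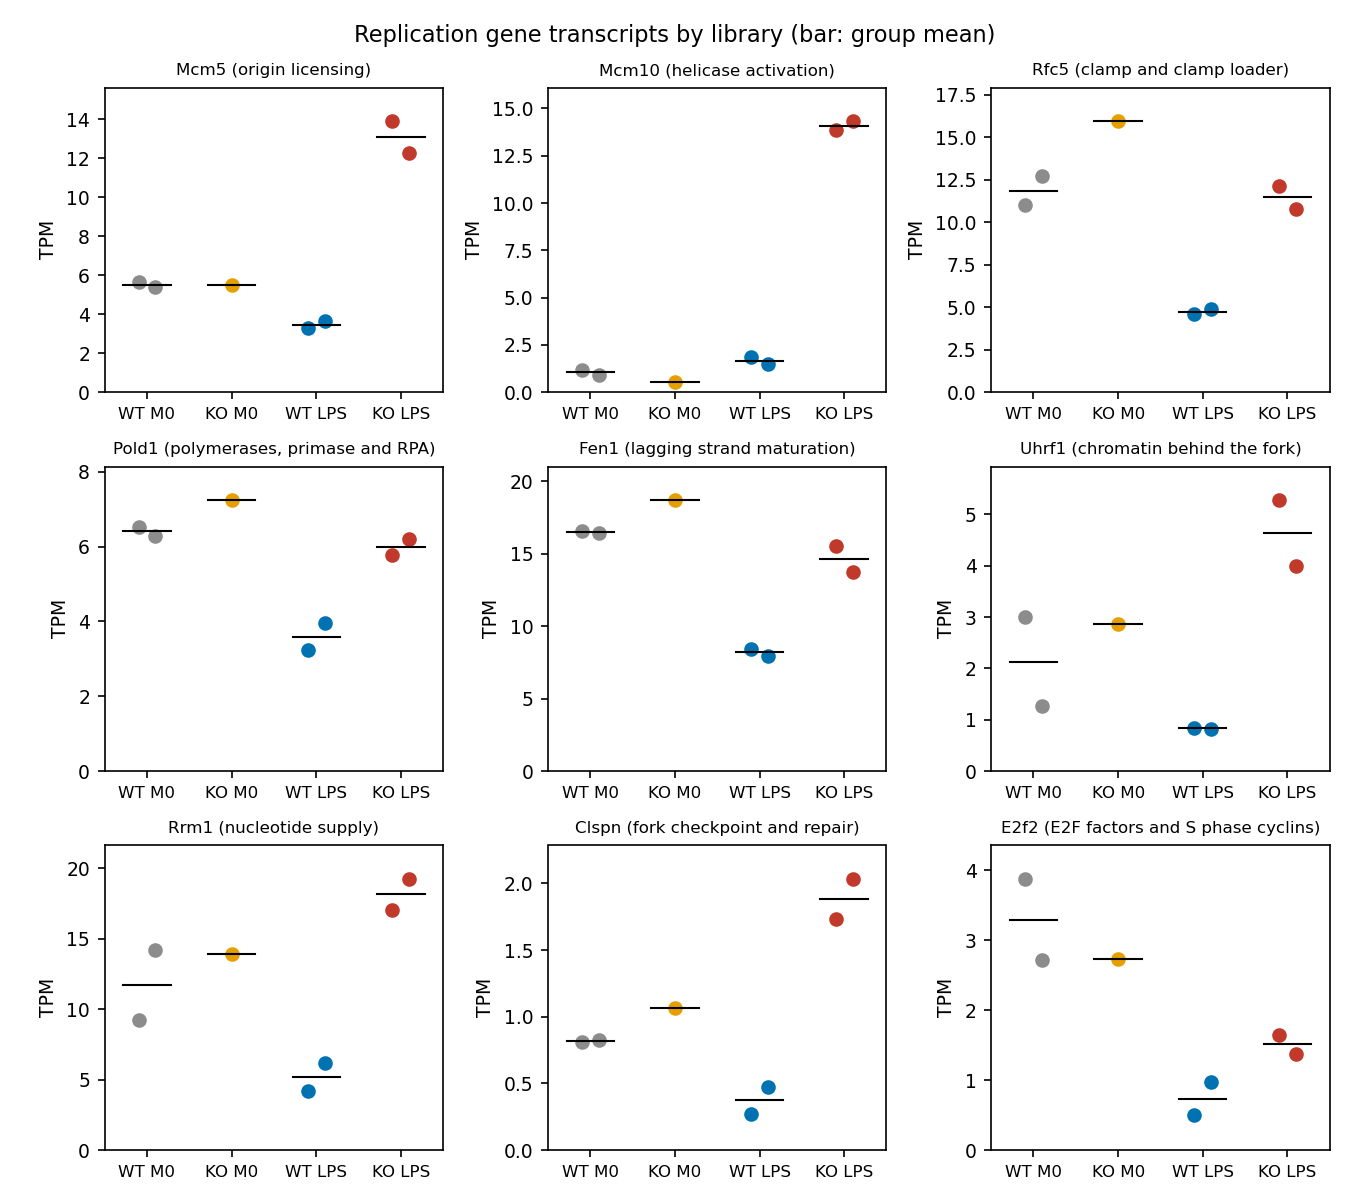
TPM in each of the 7 libraries (y axis from 0, points coloured by group, bar at the group mean) for the member with the largest KO LPS to WT LPS difference in each of the 9 roles. In the Mcm10 panel the KO LPS libraries at 13.9 and 14.3 TPM sit apart from the other 5, all at 1.84 or less.

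Promoters were read for the members with the largest and the smallest of these differences. A promoter here is the 250 bases before the RefSeq start and the 50 after it (GRCm38.p6), and 43 of the 52 members had one. The letters searched were TTCCCGC and TTGGCGC on both strands. They were present in 25 of the 43 members (58.1%), beside 7.79% of 27025 genes with a promoter, 14.4% of 7944 tested genes and 3 of 17 mitosis genes. The bases before the start are shown for the 4 members with the largest difference among those that hold the letters, and for Pold2, the member with the smallest difference, which holds neither, stopping where an annotated exon or the RefSeq span of the same gene begins. E2f1, with the next smallest difference, is not shown because its window lies within its own annotated exon. Capitals mark the E2F letters, and the sequences are written 5′ to 3′ on the gene's strand.
Mcm5, chr8:75109259-75109467, plus strand: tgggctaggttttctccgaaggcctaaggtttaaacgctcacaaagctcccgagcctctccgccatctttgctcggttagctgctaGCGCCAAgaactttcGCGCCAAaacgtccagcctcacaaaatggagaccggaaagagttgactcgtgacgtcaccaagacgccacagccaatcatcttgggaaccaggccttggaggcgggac
Rrm1, chr7:102441445-102441694, plus strand: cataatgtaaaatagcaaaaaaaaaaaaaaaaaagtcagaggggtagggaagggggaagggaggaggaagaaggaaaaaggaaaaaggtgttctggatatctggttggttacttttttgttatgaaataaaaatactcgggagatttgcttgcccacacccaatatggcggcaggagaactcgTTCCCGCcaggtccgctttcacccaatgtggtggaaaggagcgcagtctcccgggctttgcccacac
Uhrf1, chr17:56303087-56303320, plus strand: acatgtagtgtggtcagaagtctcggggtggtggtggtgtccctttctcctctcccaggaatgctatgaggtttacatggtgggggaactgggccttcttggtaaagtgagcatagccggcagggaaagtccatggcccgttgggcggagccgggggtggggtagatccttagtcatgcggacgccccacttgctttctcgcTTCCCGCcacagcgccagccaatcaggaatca
Chaf1a, chr17:56040166-56040415, plus strand: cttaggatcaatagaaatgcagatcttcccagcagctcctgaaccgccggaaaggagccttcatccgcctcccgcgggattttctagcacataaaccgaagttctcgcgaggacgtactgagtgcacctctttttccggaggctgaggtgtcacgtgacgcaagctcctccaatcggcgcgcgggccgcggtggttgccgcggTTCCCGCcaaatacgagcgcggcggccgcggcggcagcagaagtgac
Pold2, chr11:5878293-5878506, minus strand: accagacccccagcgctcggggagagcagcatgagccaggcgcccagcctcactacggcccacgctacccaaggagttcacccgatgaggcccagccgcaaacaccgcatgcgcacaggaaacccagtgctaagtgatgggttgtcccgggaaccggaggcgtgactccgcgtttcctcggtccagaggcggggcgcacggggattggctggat

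Counted back from the start that each promoter was drawn on, which for Mcm5 lies 41 bases inside the gene's RefSeq span, the Mcm5 promoter held the letters at -164 to -158 and at -149 to -143, both as GCGCCAA, the reverse complement of TTGGCGC. Rrm1 held TTCCCGC at -67 to -61, Uhrf1 at -48 to -42 and Chaf1a at -47 to -41. Of the 15 members with a promoter that were called higher in KO LPS against WT LPS, 6 held the letters (40.0%). Of the 25 with a promoter that were tested and not called, 17 did (68.0%). Mcm10, with the largest difference of all members, held no E2F letters in this window. The CHR element TTTGAA, a promoter element of genes expressed in G2 and mitosis, was in 7 of 43 members (16.3%), 13 of 17 mitosis genes (76.5%), 14.3% of tested genes and 20.2% of all genes. A match is a description of letters, not a binding site.

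Origin licensing genes load or restrain the MCM2-7 ring. Of 11, 9 were tested, and 3 were higher in KO LPS than in WT LPS, where 4.59% of all tested genes were. Mcm5 (chromosome 8, 75109468 to 75128439), a ring subunit whose promoter opens the list above, was at 13.9 and 12.3 in KO LPS, 3.30 and 3.63 in WT LPS, 5.51 in KO M0 and 5.63 and 5.41 TPM in WT M0. Both KO LPS libraries lay above all 5 others and both WT LPS libraries below them. The KO LPS to WT LPS difference of Mcm5 was 1.66 (SE 0.19, adjusted p 0.0006), and the knockout's own change with LPS was 1.11 (SE 0.24, adjusted p 0.0043). In wild type it fell by 0.55 (SE 0.19, adjusted p 0.041), a call lost without any single library other than KO M0 (adjusted p between 0.06 and 0.15).

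The other MCM2-7 subunits sat closer to their untreated levels in KO LPS. Mcm2 was at 3.08 and 3.33 in KO LPS, 0.653 and 1.70 in WT LPS, 4.21 in KO M0 and 5.46 and 4.58 TPM in WT M0, so that both LPS groups were below the untreated libraries and did not overlap with each other. Mcm6 was at 24.5 and 32.8 in KO LPS, 16.0 and 17.2 in WT LPS, 29.1 in KO M0 and 26.7 and 31.8 TPM in WT M0, and only the WT LPS pair lay apart. The differences between KO LPS and WT LPS of 0.99 (SE 0.26, adjusted p 0.048) for Mcm2 and 0.74 (SE 0.20, adjusted p 0.048) for Mcm6 stood just inside the threshold. The Mcm2 call was lost without either KO LPS or either WT M0 library or WT LPS replicate 1 (adjusted p 0.091 to 0.23), and the Mcm6 call without KO LPS replicate 2 or any WT library (adjusted p 0.074 to 0.31). Both calls were also lost with median-ratio scaling, quantile normalization, a pseudocount of 0.1 and no filter. Mcm3, Mcm4 and Mcm7 had differences of 0.48, 0.56 and 0.41 (adjusted p 0.21, 0.15 and 0.26).

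The loader and its brake were lowest after LPS. Cdt1, which brings MCM2-7 to origins, was at 25.9 and 24.1 in KO LPS, 22.9 and 21.3 in WT LPS, 62.3 in KO M0 and 41.3 and 57.1 TPM in WT M0. It fell with LPS in both genotypes, by 1.10 in wild type (SE 0.19, adjusted p 0.00091) and by 1.28 in knockout (SE 0.23, adjusted p 0.0016), and the genotypes after LPS differed by 0.17 (SE 0.19, adjusted p 0.7). Gmnn, or geminin, the inhibitor of Cdt1, was at 8.88 and 13.9 in KO LPS, 5.50 and 8.47 in WT LPS, 19.5 in KO M0 and 19.5 and 22.9 TPM in WT M0. It fell by 1.50 in wild type (SE 0.25, adjusted p 0.00083), while its knockout change of -0.75 did not pass (adjusted p 0.081). Orc6, an origin recognition subunit, had the smallest difference of the role, 0.05 (SE 0.20, adjusted p 0.94), with 7.01 and 7.90 TPM in WT LPS, 8.17 and 7.31 in KO LPS, 9.40 in KO M0 and 9.66 and 12.3 in WT M0. Of the untested pair, the MCM loader Cdc6 stayed between 0.206 and 0.627 TPM in all libraries and Orc1, the largest origin recognition subunit, between 0.387 and 1.30, with its highest value in KO LPS replicate 2.

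Helicase activation held the member with the largest changes. Higher in KO LPS than in WT LPS were 3 of its 6 genes, beside 4.59% of all tested genes. Mcm10 (chromosome 2, 4990724 to 5012791), a scaffold needed to open the loaded helicase, was at 13.9 and 14.3 in KO LPS, 1.84 and 1.47 in WT LPS, 0.538 in KO M0 and 1.19 and 0.925 TPM in WT M0. Both KO LPS libraries stood far above the other 5. The KO LPS to WT LPS difference was 2.51 (SE 0.21, adjusted p 0.00014) and the rise with LPS in knockout 3.29 (SE 0.26, adjusted p 6e-06), while the wild-type change of 0.37 did not pass (adjusted p 0.19). The LPS responses of the genotypes differed by 2.93 (SE 0.34, adjusted p 0.005), a call lost without WT M0 replicate 1 (adjusted p 0.071) and with no filter on low values.

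Cdc45, the helicase cofactor, was also highest in KO LPS. It was at 4.94 and 5.59 in KO LPS, 1.09 and 1.02 in WT LPS, 2.18 in KO M0 and 1.93 and 1.61 TPM in WT M0, with the KO LPS pair above and the WT LPS pair below the rest. Its KO LPS to WT LPS difference was 1.61 (SE 0.21, adjusted p 0.0012), and in knockout it rose by 0.98 with LPS (SE 0.26, adjusted p 0.013), a call lost without KO LPS replicate 2 (adjusted p 0.057). Cdc45 shares exon sequence with Ufd1 on the opposite strand. Gins1, a GINS subunit, was at 7.03 and 7.94 in KO LPS, 3.52 and 3.02 in WT LPS, 1.36 in KO M0 and 3.93 and 2.34 TPM in WT M0. The KO LPS pair was again highest, and the lone KO M0 library lowest. Gins1 rose by 1.84 with LPS in knockout (SE 0.29, adjusted p 0.00068), and its KO LPS to WT LPS difference of 0.99 (SE 0.24, adjusted p 0.033) was lost without any single LPS library (adjusted p 0.07 to 0.18) and with either rescaling, a pseudocount of 0.1 or no filter.

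The other 3 GINS subunits did not pass in KO LPS against WT LPS, although the 4 act as 1 complex. Gins4 was at 15.6 and 18.1 in KO LPS, 12.2 and 16.3 in WT LPS, 23.3 in KO M0 and 24.7 and 22.3 TPM in WT M0, with the LPS groups overlapping, and its difference was 0.23 (SE 0.20, adjusted p 0.58). Gins2 and Gins3 had differences of 0.56 and 0.57 (adjusted p 0.14 and 0.24). With LPS in wild type, Gins3 fell by 0.88 (adjusted p 0.016) and Gins4 by 0.69 (adjusted p 0.015), and both calls were lost without WT M0 replicate 1 or WT LPS replicate 1 (adjusted p 0.072 to 0.13), that of Gins3 also without WT M0 replicate 2.

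The sliding clamp and its loader were split. Pcna (chromosome 2, 132249286 to 132253180), the clamp itself and by far the most abundant member, was at 199 and 206 in KO LPS, 239 and 231 in WT LPS, 273 in KO M0 and 283 and 293 TPM in WT M0. It was the only member whose KO LPS libraries both lay below WT LPS, a difference of -0.21 (SE 0.14, adjusted p 0.47), and none of its changes passed. Rfc5 (chromosome 5, 117379145 to 117389023), a small subunit of the RFC loader, was at 12.1 and 10.8 in KO LPS, 4.60 and 4.88 in WT LPS, 15.9 in KO M0 and 11.0 and 12.7 TPM in WT M0. The KO LPS pair overlapped with WT M0, and the WT LPS pair lay well below both. Rfc5 fell by 1.16 with LPS in wild type (SE 0.19, adjusted p 0.00064), its change of -0.44 in knockout did not pass (adjusted p 0.16), and the KO LPS to WT LPS difference was 1.12 (SE 0.19, adjusted p 0.0054).

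Rfc2, another small subunit of the same loader, was at 16.7 and 13.7 in KO LPS, 11.2 and 17.4 in WT LPS, 37.5 in KO M0 and 40.6 and 37.4 TPM in WT M0, with the LPS groups overlapping far below the untreated libraries. It fell by 1.41 in wild type (SE 0.22, adjusted p 0.00048) and by 1.25 in knockout (SE 0.27, adjusted p 0.0044). Rfc1, the large subunit, ranged only from 11.0 to 14.9 TPM over all 7 libraries, and Rfc3 and Rfc4 had KO LPS to WT LPS differences of 0.36 and 0.63 (adjusted p 0.32 and 0.22). Rfc5 shares exon sequence with Wsb2, Rfc2 with Lat2 and Rfc4 with Eif4a2, each on the opposite strand, and whether reads were counted by strand is not given in the sources used here, so the split within the loader is uncertain to that extent.

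None of the 10 tested polymerase, primase and RPA genes passed in KO LPS against WT LPS, where 7.16% of all tested genes did, and the median difference of the 10 was 0.33. Pold1, the catalytic subunit of polymerase delta, had the largest, 0.61 (SE 0.20, adjusted p 0.11), with 5.76 and 6.20 in KO LPS, 3.23 and 3.96 in WT LPS, 7.23 in KO M0 and 6.51 and 6.29 TPM in WT M0. Its WT LPS pair was the lowest and KO LPS lay just under the untreated range. Pold2, the accessory subunit whose promoter is shown above, had the lowest difference of all members, -0.44 (SE 0.26, adjusted p 0.4), with 6.47 and 3.50 in KO LPS, 6.11 and 7.65 in WT LPS, 9.30 in KO M0 and 11.3 and 10.0 TPM in WT M0. The 2 KO LPS libraries of Pold2 were far apart and overlapped with WT LPS. Pole, the catalytic subunit of polymerase epsilon, was not tested, at 1.51 and 1.43 in KO LPS, 0.207 and 0.357 in WT LPS, 1.06 in KO M0 and 0.524 and 0.738 TPM in WT M0, with KO LPS above the rest.

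Several genes of this role fell with LPS in both genotypes. Pola1 (X chromosome), the catalytic subunit of polymerase alpha, was at 1.05 and 1.32 in KO LPS, 0.672 and 0.582 in WT LPS, 3.31 in KO M0 and 2.21 and 4.56 TPM in WT M0, and Rpa1, the large subunit of the single-strand binding protein RPA, at 13.3 and 14.6, 10.2 and 12.4, 22.4, and 22.2 and 26.3 in the same order. All 4 LPS libraries of both genes lay below all untreated ones. Pola1 fell by 1.38 in wild type (SE 0.28, adjusted p 0.0024) and by 0.98 in knockout (SE 0.34, adjusted p 0.042). Rpa1 fell by 1.04 (SE 0.19, adjusted p 0.0013) and 0.65 (SE 0.23, adjusted p 0.047), and Pole2, the second subunit of polymerase epsilon, by 0.95 (SE 0.26, adjusted p 0.013) and 0.92 (SE 0.32, adjusted p 0.043). The knockout calls were marginal: those of Pola1 and Pole2 were lost without either KO LPS library (adjusted p 0.069 to 0.11), that of Rpa1 without any single library that could be left out (0.053 to 0.14), and all 3 under either rescaling. The wild-type call of Pole2 was lost without WT M0 replicate 2 or WT LPS replicate 1 (0.08 to 0.1). Pole2 shares exon sequence with the protein-coding gene Gm49384 on the same strand.

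Pola2, the partner subunit of Pola1, was highest in KO LPS. It was at 20.1 TPM in both KO LPS libraries, 15.6 and 15.0 in WT LPS, 12.3 in KO M0 and 12.8 and 12.7 in WT M0, with no overlap between untreated, WT LPS and KO LPS. Pola2 rose by 0.66 with LPS in knockout (SE 0.21, adjusted p 0.031), a call lost without either KO LPS library (adjusted p 0.088 and 0.095), and its 0.24 in wild type did not pass (adjusted p 0.27). Rpa2, the middle RPA subunit, had the same order of groups, between 12.8 and 14.2 TPM untreated, 21.2 and 22.1 in KO LPS against 15.6 and 17.3 in WT LPS, with no change past the threshold (adjusted p 0.057 in knockout). Prim2 and Pold1 fell in wild type by 0.75 and 0.69 (adjusted p 0.02 and 0.017). The call of Prim2, the large primase subunit, was lost without WT M0 replicate 1 or WT LPS replicate 2 (0.11 and 0.13), and that of Pold1 without either WT M0 library or WT LPS replicate 1 (0.058 to 0.098).

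Behind the fork, Fen1 trims the flaps of lagging-strand fragments and Lig1 seals them. Fen1 was at 15.5 and 13.7 in KO LPS, 8.46 and 7.91 in WT LPS, 18.7 in KO M0 and 16.6 and 16.4 TPM in WT M0. The WT LPS pair lay apart below, and KO LPS just under the untreated libraries. Fen1 fell by 0.93 in wild type (SE 0.18, adjusted p 0.0018) and differed between KO LPS and WT LPS by 0.77 (SE 0.18, adjusted p 0.029), but the latter was lost without any single library other than KO M0 (adjusted p 0.056 to 0.16). Lig1 was at 9.15 and 5.94 in KO LPS, 3.73 and 4.79 in WT LPS, 10.1 in KO M0 and 7.59 and 8.84 TPM in WT M0, a KO LPS to WT LPS difference of 0.68 that did not pass (SE 0.24, adjusted p 0.13). Fen1 shares exon sequence with Tmem258 and Lig1 with Zswim9, on the opposite strand.

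Of the chromatin genes, 2 of 3 were higher in KO LPS than in WT LPS, where 4.59% of all tested genes were. Uhrf1, which brings DNA methylation to the newly copied strand, was at 5.27 and 3.99 in KO LPS, 0.834 and 0.828 in WT LPS, 2.87 in KO M0 and 3.01 and 1.26 TPM in WT M0, and Chaf1a, the large subunit of the histone chaperone CAF-1, at 6.27 and 5.74, 1.41 and 2.09, 3.28, and 3.04 and 2.20 in the same order. In both, the KO LPS pair was above every other library and the WT LPS pair below. The KO LPS to WT LPS differences were 1.61 (SE 0.28, adjusted p 0.0065) for Uhrf1 and 1.36 (SE 0.23, adjusted p 0.0053) for Chaf1a, and both were lost with no filter on low values. Chaf1b, the second CAF-1 subunit, was at 3.54 and 3.94 in KO LPS, 1.82 and 3.44 in WT LPS, 6.11 in KO M0 and 3.92 and 3.96 TPM in WT M0, and its difference of 0.42 did not pass (SE 0.25, adjusted p 0.39). Chaf1a shares exon sequence with Ubxn6 on the opposite strand.

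Nucleotide supply had 4 of its 5 genes higher in KO LPS than in WT LPS, where 4.59% of all tested genes were. With quantile normalization the count was 3. The median difference of the 5 was 1.07. Rrm1 (chromosome 7, 102441695 to 102469771), the large subunit of ribonucleotide reductase, was at 17.1 and 19.2 in KO LPS, 4.21 and 6.19 in WT LPS, 13.9 in KO M0 and 9.27 and 14.2 TPM in WT M0. Tyms (chromosome 5, 30038546 to 30073645), which makes thymidylate, was at 5.93 and 5.52 in KO LPS, 1.49 and 1.23 in WT LPS, 0.833 in KO M0 and 0.969 and 1.28 TPM in WT M0. For both genes the KO LPS pair lay above all other libraries, but the WT LPS pair of Rrm1 was the lowest while that of Tyms overlapped with WT M0. Rrm1 differed between KO LPS and WT LPS by 1.64 (SE 0.24, adjusted p 0.0025), a call lost with no filter, and fell by 1.03 in wild type (SE 0.24, adjusted p 0.0061), a call lost without WT M0 replicate 2 or WT LPS replicate 1 (adjusted p 0.053 and 0.067). Tyms differed by 1.51 (SE 0.22, adjusted p 0.002) and rose by 1.88 with LPS in knockout (SE 0.27, adjusted p 0.00032). Its processed copy Tyms-ps was at no more than 0.142 TPM in any library.

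Rrm2, the small subunit that limits ribonucleotide reductase to S phase, was at 5.86 and 4.32 in KO LPS, 1.59 and 2.22 in WT LPS, 4.62 in KO M0 and 3.90 and 3.13 TPM in WT M0, and the salvage kinase Tk1 at 9.69 and 9.98, 4.60 and 5.02, 7.80, and 9.87 and 7.65 in the same order. In both, KO LPS overlapped with the untreated range and WT LPS lay below it. The KO LPS to WT LPS differences were 1.07 for Rrm2 (SE 0.23, adjusted p 0.021), lost without KO LPS replicate 1 or WT LPS replicate 1 (0.099 and 0.13), and 0.90 for Tk1 (SE 0.20, adjusted p 0.023), lost without any single LPS library (0.078 to 0.13) and with quantile normalization. Both calls were also lost with no filter. Dut, which keeps uracil out of DNA, was the exception, at 1.05 and 1.47 in KO LPS, 0.507 and 0.731 in WT LPS, 2.31 in KO M0 and 3.15 and 2.87 TPM in WT M0. Both LPS groups of Dut were below the untreated libraries. It fell by 1.31 in wild type (SE 0.22, adjusted p 0.00089), and its KO LPS to WT LPS difference of 0.48 did not pass (SE 0.22, adjusted p 0.27). Tk1 shares exon sequence with Afmid on the opposite strand.

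Both checkpoint and repair genes were higher in KO LPS than in WT LPS, at low levels, where 4.59% of all tested genes were higher. Clspn, or claspin, the adaptor that carries the stalled-fork signal to Chek1, was at 1.73 and 2.03 in KO LPS, 0.274 and 0.475 in WT LPS, 1.06 in KO M0 and 0.809 and 0.824 TPM in WT M0, and Brca1, of homologous recombination, at 1.69 and 1.42, 0.302 and 0.491, 1.61, and 0.979 and 0.972 in the same order. The KO LPS pair was highest for Clspn and overlapped with the KO M0 library for Brca1. Differences between KO LPS and WT LPS were 1.07 for Clspn (SE 0.22, adjusted p 0.017) and 0.87 for Brca1 (SE 0.22, adjusted p 0.042). The Clspn call was lost without KO LPS replicate 2 or WT LPS replicate 1 (0.076 and 0.1), and the Brca1 call without any single library other than KO M0 (0.066 to 0.16).

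The E2F factors and S phase cyclins stand upstream of the other genes in the textbook account. By limma 0 of the 4 tested passed in KO LPS against WT LPS, where 7.16% of all tested genes did. An unadjusted p of 0.05 was passed by 1 (E2f2), as by 20.0% of all tested genes. E2f1, an activator, was at 19.2 and 11.4 in KO LPS, 15.9 and 24.1 in WT LPS, 11.99 in KO M0 and 13.5 and 13.4 TPM in WT M0, with both LPS pairs wide apart and overlapping (difference -0.38, SE 0.26, adjusted p 0.49). E2f2, a second activator, was at 1.65 and 1.37 in KO LPS, 0.496 and 0.971 in WT LPS, 2.73 in KO M0 and 3.87 and 2.71 TPM in WT M0, below untreated levels in both LPS groups. It fell by 1.31 in wild type (SE 0.25, adjusted p 0.0016), and its KO LPS to WT LPS difference was 0.55 (SE 0.25, adjusted p 0.25). The repressor E2f8 had a difference of 0.45 (adjusted p 0.29), and E2f7, also a repressor and not tested, stood at 0.333 and 0.606 TPM in KO LPS and between 0.126 and 0.207 elsewhere.

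Ccne1, or cyclin E1, which with Cdk2 starts S phase, was the only member that rose in wild type and 1 of 2, with Pola2, that rose in knockout and had no call between the LPS groups. It was at 6.86 and 6.47 in KO LPS, 4.68 and 5.00 in WT LPS, 3.08 in KO M0 and 1.29 and 1.49 TPM in WT M0, with no overlap between any of the 4 groups. Ccne1 rose by 1.29 in wild type (SE 0.20, adjusted p 0.00049) and by 0.91 in knockout (SE 0.25, adjusted p 0.015), the latter lost without KO LPS replicate 1 (adjusted p 0.054), and differed between the LPS groups by 0.39 (SE 0.20, adjusted p 0.32). Ccne2, or cyclin E2, was not tested and lay between 0.173 and 0.751 TPM.

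Across roles, the called members were nearly all lower in WT LPS than in WT M0, groups that also differ in Xist and the Y-linked genes as given above. In WT LPS against WT M0, 23 of 47 members fell and 1 rose, where 44.6% of all tested genes were called, with 29.6% lower and 15% higher. Both WT LPS libraries lay below both WT M0 libraries in 35 of the 47 and above them in 5, where 48.4% and 25% of all tested genes did so. The median change was -0.64, beside -0.21 over all tested genes, or -0.43 relative to the median gene. With median-ratio scaling, which brings that all-gene median to 0.01, 18 fell and 4 rose, and with quantile normalization 15 fell and 5 rose. The shares of all tested genes above are from unscaled TPM and do not apply to these counts. The median of the members was -0.45 with median-ratio scaling. It was -0.31 with quantile normalization, beside -0.03 over all tested genes. Of the 24 calls, 5 were lost with median-ratio scaling (Mcm5, Gins4, Prim2, Lig1 and Rrm2) and 9 with quantile normalization (Mcm5, Mcm7, Gins3, Prim2, Pold1, Pole2, Lig1, Rrm2 and Tk1). The count of 24 became 12 without WT LPS replicate 1 and 15 without either WT M0 library, and 11 (Mcm2, Cdt1, Gmnn, Rfc2, Rfc5, Pola1, Rpa1, Fen1, Dut, Ccne1 and E2f2) passed whichever library was left out. Of the 24, Mcm4, Mcm7 and Lig1 fell by 0.76, 0.66 and 0.81 (adjusted p 0.012, 0.018 and 0.017), and these calls were lost without WT M0 replicate 2 or WT LPS replicate 1 (adjusted p 0.055 to 0.11), those of Mcm7 and Lig1 also without WT M0 replicate 1. Mcm6, Rrm2 and Tk1 fell by 0.78, 0.64 and 0.74 (adjusted p 0.0084, 0.045 and 0.012), and each of these calls was lost without WT LPS replicate 1 (0.052 to 0.21).

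In knockout macrophages some members rose with LPS and others fell. KO LPS against KO M0 gave 7 higher members (Mcm5, Mcm10, Cdc45, Gins1, Tyms, Pola2 and Ccne1) and 5 lower (Cdt1, Rfc2, Pola1, Pole2 and Rpa1), where 38.1% of all tested genes were called, with 13.8% higher and 24.3% lower. Both KO LPS libraries lay above the KO M0 library in 17 members and below it in 25, where 30.3% and 57.3% of all tested genes did so. The shares of members that rose, and that lay above or below KO M0, were thus near those of all genes. The median of the members was -0.07 and that of all tested genes -0.24. With median-ratio scaling the split was 9 higher and 2 lower, and with quantile normalization 9 and 3, and the calls of Pola1, Pole2 and Rpa1 were lost with either. The shares of all tested genes above are from unscaled TPM and do not apply to these splits. KO M0 is a single library whose spread is taken from the other groups, and 6 of the 12 calls (Mcm5, Mcm10, Gins1, Tyms, Cdt1 and Rfc2) were made whichever other library was left out. WT LPS plays no part in this comparison except in the shared spread: without both of its libraries 7 members were higher and 4 lower, Rpa1 being lost (adjusted p 0.053).

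**Figure D3:**
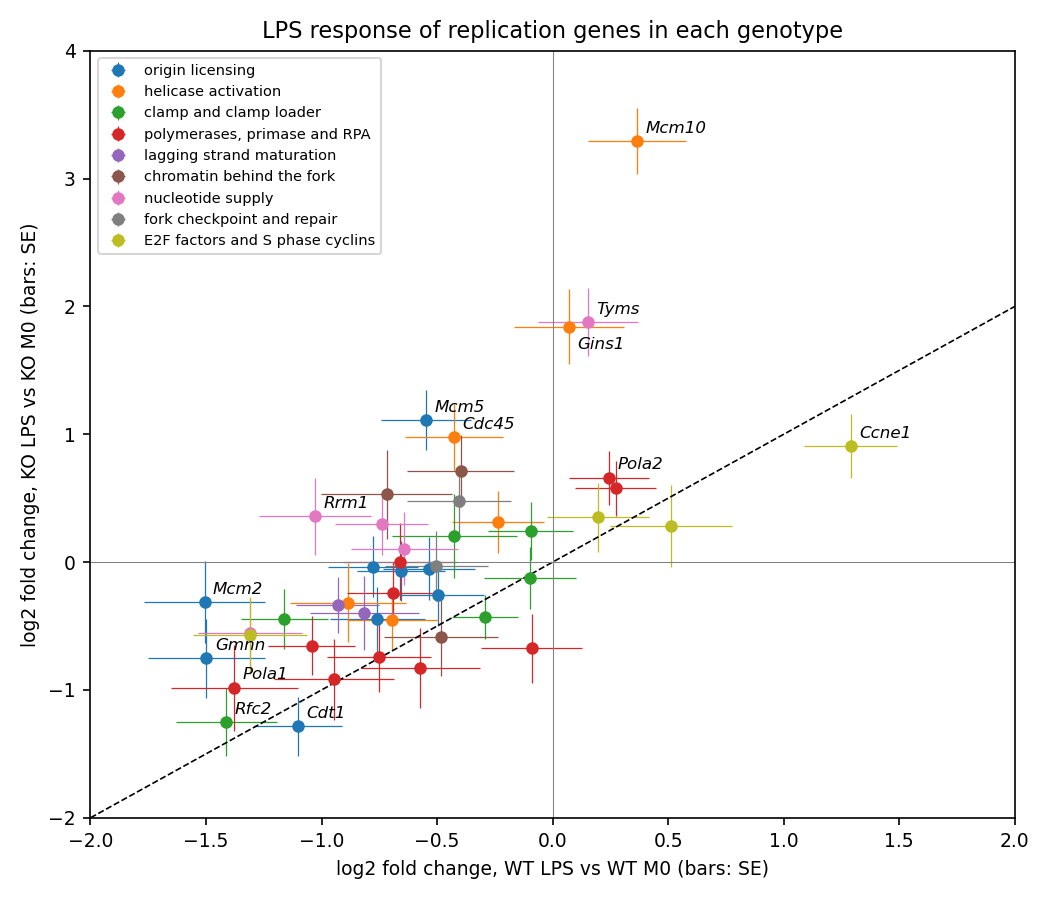
Log2 change of TPM + 1 with LPS in wild type (x axis, WT LPS vs WT M0) and in knockout (y axis, KO LPS vs KO M0) for the 47 tested replication genes, coloured by role, with bars of 1 standard error and a dashed line of equal change. Mcm10 at 0.37 and 3.29 lies farthest above the line, while Cdt1 at -1.10 and -1.28 and Rfc2 at -1.41 and -1.25 lie close to it.

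The genotypes' LPS responses are compared with a test of their own. It called 3 of 47 members, all with a larger response in knockout, where 0.847% of tested genes were called in that direction and 0.523% in the other: Mcm10 by 2.93, Tyms by 1.72 (SE 0.34, adjusted p 0.044) and Mcm5 by 1.66 (SE 0.31, adjusted p 0.031). The median difference over the 47 was 0.48, beside -0.02 over all tested genes. Without WT M0 replicate 1 no member passed (adjusted p 0.071 to 0.15 for the 3), without WT LPS replicate 1, WT M0 replicate 2 or either KO LPS library only Mcm10 did (0.052 to 0.12 for the other pair), and without WT LPS replicate 2 Tyms was lost (0.089). Gins1 at 1.77 (SE 0.38, adjusted p 0.054) and Cdc45 at 1.40 (SE 0.34, adjusted p 0.085) fell short. The LPS groups also enter the comparisons above, so these values are not separate evidence.

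In 41 of the 47 members the KO LPS mean lay above the WT LPS mean, and 40 of them took 1 of 2 forms. The forms cover nearly every way to lie above WT LPS, so their total restates that difference. In 22 the KO LPS mean lay above that of WT LPS and below that of WT M0, where 26.9% of all tested genes did so. Among them were Mcm2, Mcm6, Rfc5 and Fen1, but also Cdt1, Orc6 and Rfc2, whose KO LPS to WT LPS differences were only 0.17, 0.05 and 0.11. In 18 it was above the means of all 3 other groups, where 23.9% of all tested genes did so. In 15 of these both KO LPS libraries were above all 5 others, against 13.4% of all tested genes, as in Mcm5, Mcm10, Cdc45, Gins1, Tyms, Rrm1, Uhrf1, Chaf1a and Clspn. The other 7 (Pcna, Rfc1, Pold2, Pole2, Rpa3, Brca1 and E2f1) showed neither form. All these levels are unscaled TPM, and no split was made after rescaling. Median-ratio size factors were between 0.89 and 0.97 after LPS and between 1.05 and 1.14 untreated, so the split depends on the scaling. Mcm6, for example, had means of 28.7 in KO LPS and 29.2 TPM in WT M0. Of the 16 members higher in KO LPS than in WT LPS, 8 had fallen with LPS in wild type (Mcm2, Mcm5, Mcm6, Rfc5, Fen1, Rrm1, Rrm2 and Tk1) and the other 8 had no call there. Over all tested genes 29.6% fell. Both comparisons use the same WT LPS libraries, so low values there favour both calls and the overlap is not separate evidence.

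Before LPS the genotypes were not told apart in these genes. KO M0 against WT M0 called 0 of 47 by limma, where 0.00901% of all tested genes were called, and 2 passed an unadjusted p of 0.05, namely Gins1 (-0.78, SE 0.29) and Ccne1 (0.78, SE 0.25), both with an adjusted p of 1.0, where 1.39% of all tested genes passed at that unadjusted level. The median was 0.00, beside 0.06 over all tested genes. KO M0 is 1 library.

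Genes that work beside the members were taken from 3 further lists, also chosen with earlier results of these data known. Where 4.59% of all tested genes were higher in KO LPS than in WT LPS and 2.58% lower, 3 of 36 tested genes among 42 other replication genes were higher and 0 lower. Their median was 0.23. Among them were the fork protection factor Timeless (1.48, SE 0.32, adjusted p 0.021) and the histone chaperone Asf1b (0.95, SE 0.20, adjusted p 0.02). Dbf4, the partner of the origin-firing kinase Cdc7, was at 17.1 and 20.0 TPM in KO LPS against 8.15 and 12.3 in WT LPS, a difference of 0.82 that did not pass (SE 0.23, adjusted p 0.059).

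Genes listed as G1 regulators mostly govern entry into S phase, although Ccna2 acts from S phase onward. Where 4.59% of all tested genes were higher in KO LPS than in WT LPS and 2.58% lower, 6 of the 25 were higher, 0 lower, with a median of 0.15. They were a mixed set: cyclin A2 (Ccna2, 2.09, SE 0.24, adjusted p 0.00052) and cyclin D2 (Ccnd2, 1.08, SE 0.25, adjusted p 0.026), which drive the cycle, and 4 that restrain it, the kinase inhibitors p18 (Cdkn2c, 1.65, SE 0.19, adjusted p 0.00062), p21 (Cdkn1a, 0.85, SE 0.22, adjusted p 0.04) and p27 (Cdkn1b, 0.77, SE 0.17, adjusted p 0.021) and the pocket protein Rbl1 (0.91, SE 0.23, adjusted p 0.04). With either rescaling the count was 3. Ccna2 was at 22.8 and 29.7 in KO LPS, 4.18 and 6.78 in WT LPS, 7.50 in KO M0 and 5.24 and 5.13 TPM in WT M0, with KO LPS apart from the rest. Myc, a driver of growth and G1 entry, fell with LPS by 3.15 in wild type (SE 0.19, adjusted p 8.3e-07) and by 2.81 in knockout (SE 0.24, adjusted p 9.4e-06). Cyclin D1 (Ccnd1) fell by 2.87 and 2.59 and its kinase Cdk6 by 2.35 and 2.12 in the same order (adjusted p at most 0.00047), and none of these 3 had a call between the LPS groups (adjusted p 0.31 to 0.99).

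All 20 mitosis genes (among them Ccnb1, Ccnb2, Top2a and Ube2c) were higher in KO LPS than in WT LPS, with a median of 2.37, against the 0.55 of the replication genes. Of all tested genes, 4.59% were higher. Both lists were chosen with earlier results of these data known, so the contrast is not independent of those results. Ccnb2, or cyclin B2, was at 53.2 and 59.7 in KO LPS, 5.49 and 6.48 in WT LPS, 5.02 in KO M0 and 6.16 and 3.59 TPM in WT M0. The summed level of the mitosis genes was 669.0 and 744.2 TPM in KO LPS and between 93.6 and 180.3 in the other 5 libraries. All members summed to 647.1 and 643.7 TPM in KO LPS and to between 735.7 and 776.8 untreated. The members without Pcna summed to 447.7 and 437.3 TPM in KO LPS and to between 452.5 and 491.5 untreated. Median-ratio scaling divides by factors of 0.95 in both KO LPS libraries and between 1.05 and 1.14 untreated, so the order of the members' sums depends on the scaling. With LPS in wild type, 4 mitosis genes rose and 2 fell, where 1 member rose and 23 fell. Of all tested genes, 15% rose and 29.6% fell. With median-ratio scaling 8 mitosis genes rose and 1 fell, and with quantile normalization 11 and 1, counts to which these shares from unscaled TPM do not apply. Tested between genotypes, the LPS response differed in 12 of 20 mitosis genes and in 3 of 47 members, where 1.37% of all tested genes were called.

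**Figure D4:**
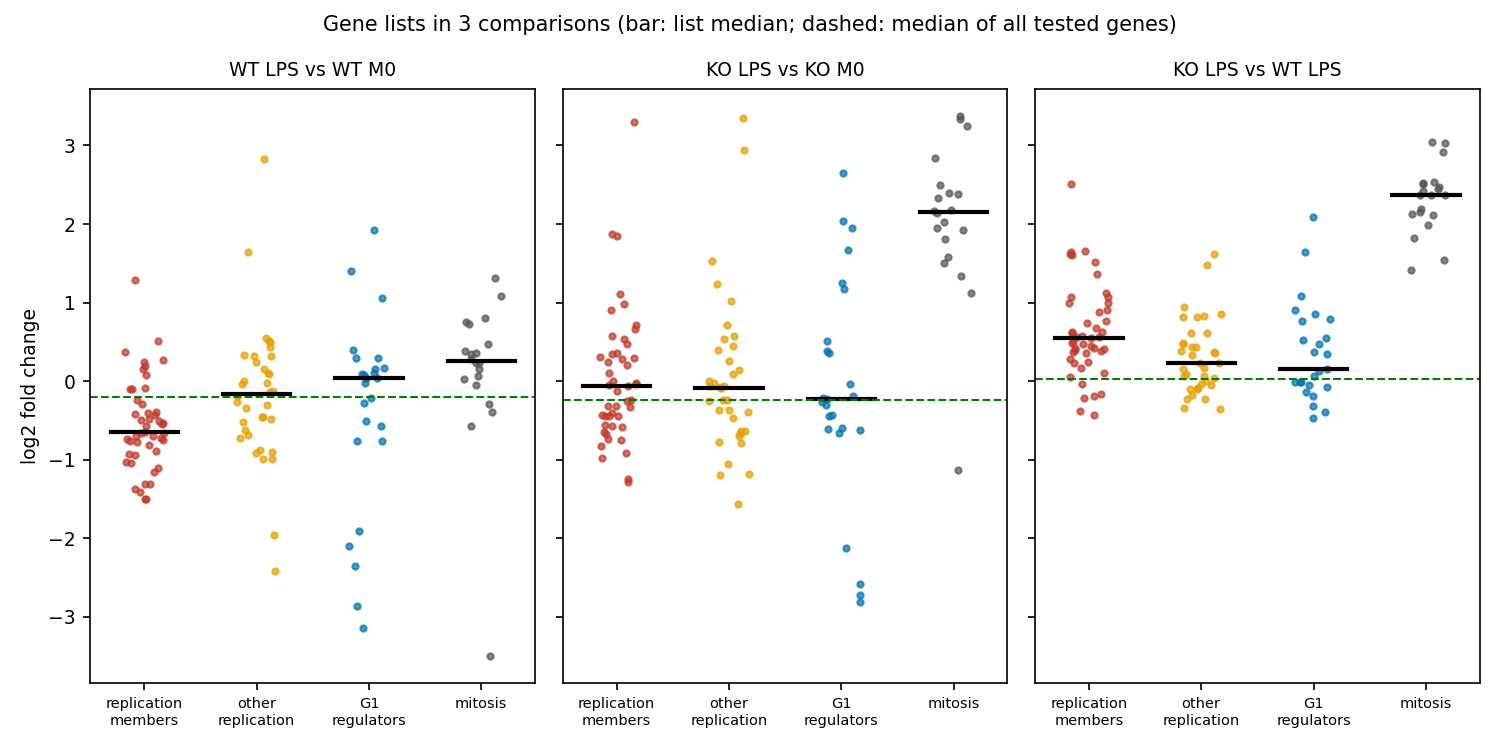
Log2 fold change of TPM + 1 (y axis) for each tested gene of the replication genes, the other replication genes, the G1 regulators and the mitosis genes, in panels for the LPS response of wild type (left), of knockout (middle) and the difference between knockout and wild type after LPS (right). A point is a gene, a bar the median of its list and the dashed line the median of all tested genes. In the right panel mitosis genes lie between 1.41 and 3.04 and replication genes between -0.44 and 2.51.

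Of 8 markers of stromal cells, which can also divide in marrow cultures, the collagen genes Col1a1, Col1a2 and Col3a1 and Pdgfra lay higher in KO LPS than in WT LPS without overlap, and Dcn, Lum, Pdgfrb and Cxcl12 overlapped. The 8 markers summed to 25.4 and 30.2 in KO LPS, 21.2 and 23.4 in WT LPS, 23.7 in KO M0 and 31.7 and 43.5 TPM in WT M0. After LPS these sums were mostly Pdgfrb, at 27.7 and 19.9 in KO LPS and 18.2 and 21.2 in WT LPS against no more than 2.29 TPM untreated. Col1a1 was at 1.18 and 1.56 TPM in KO LPS, between 10.4 and 18.7 in the untreated libraries, and listed at 0 in both WT LPS libraries, as were Col1a2 and Col3a1. The collagen genes were higher untreated than in KO LPS, and the part of such cells in the KO LPS to WT LPS differences was not tested. Markers of B cells, erythroid cells, mast cells and dendritic cells summed to no more than 2.11 TPM in any library. The 6 markers of T and NK cells summed to between 11.7 and 14.6 TPM untreated and to no more than 1.70 after LPS, 5 of them never passing 1 TPM. Neutrophil markers, several of which LPS-treated macrophages also express, summed to between 114.0 and 125.9 TPM untreated, 353.9 and 403.8 in KO LPS against 486.0 and 607.2 in WT LPS.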

How the data were processed

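The authors deposited 1 table per library with TPM per gene, and each table sums to 1e+06, per the file values. Build mm10 is named in the submitters' processing notes. How reads were aligned, annotated, counted and assigned to strands is not given in the sources used here, so genes that share exons with another gene (18 of 52 members in the GENCODE annotation, not all named above) are uncertain. Genes with a mean of at least 1 TPM over the 7 libraries (11096 of 23337) were fitted as log2(TPM + 1) with limma 3.58.1 in R 4.3.3, with group means over all 7 libraries, variances moderated by mean level (degrees of freedom 3 residual and 7.3 prior), 5 comparisons and Benjamini-Hochberg adjustment over all tested genes at 0.05. The single KO M0 library takes its spread from the other groups. Adjusted p-values are from limma.

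The members and the further lists were chosen with earlier results of these data known. Values in every library are given for the member with the largest and with the smallest KO LPS to WT LPS difference in each role and for called members that differ from most of their role; other members were named freely, and of the further lists mainly those with the smallest p. Gene coordinates and promoters are from RefSeq (GRCm38.p6), the assembly of mm10. One gene of the list of other replication genes is counted there but not reported here. The fit was tested on simulated data. Alternatives were median-ratio scaling, quantile normalization, a pseudocount of 0.1, no filter, a minimum mean of 5 TPM, an adjusted p of 0.01, the compared groups alone, a replicate block, and each library left out in turn. Figures were drawn with matplotlib 3.10.9.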

Additional observations from a re-analysis of the deposited data

Results flagged for a closer look

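In 3 replication genes the change with LPS differed between the genotypes by a test of that difference itself. The knockout change minus the wild-type change, on the log2(TPM + 1) scale, was 2.93 for the helicase scaffold Mcm10, 1.72 for the thymidylate synthase Tyms and 1.66 for the ring subunit Mcm5. Xist stood at 47.2 and 55.4 TPM in the WT LPS libraries on which all 3 values rest, and the untreated knockout is a single library. Groups of 2 libraries are too small for a check of single outlying values. The Tyms call was lost with quantile normalization (adjusted p 0.067 by limma) and with a pseudocount of 0.1 (0.09). All 3 calls were lost with no filter on low values, and losses with 1 library left out are given above.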

How the results depend on the processing

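Depth is unknown, groups hold 1 or 2 libraries, and WT LPS cannot be left out of the comparisons that use it, so these calls rest on few libraries. Over the 55 calls of members, 593 of 777 values under the alternatives kept their call, 184 kept the direction but missed the threshold and 0 reversed. Where the cause of a lost call is not in the construction of the alternative (a stricter threshold, fewer genes or libraries), the cause was not tested.

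In KO LPS against WT LPS the count of 16 members became 8 at an adjusted p of 0.01, 8 with no filter and 6 with a minimum mean of 5 TPM, which tests 28 members, and it ran from 8 (without WT LPS replicate 1) to 16 (without KO M0) with 1 library left out. In WT LPS against WT M0 the count of 24 became 13 at 0.01 and ran from 12 (without WT LPS replicate 1) to 25 (without WT LPS replicate 2). The count of 12 in KO LPS against KO M0 became 6 at 0.01 and 5 at 5 TPM, and ran from 8 (without either KO LPS library) to 12. For the difference between the responses the count of 3 became 1 at 0.01, 0 with no filter and 1 at 5 TPM, and ran from 0 (without WT M0 replicate 1) to 2 (without WT LPS replicate 2). KO M0 against WT M0 stayed at 0 throughout.

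The labels do not say that replicate numbers pair the samples. Deviations from the group means correlated by 0.18 between WT LPS and KO LPS, 0.08 between WT M0 and WT LPS and 0.30 between WT M0 and KO LPS. With the replicate number as a block the counts were 16 in KO LPS against WT LPS and 28 in WT LPS against WT M0, and Brca1 was lost in the former (adjusted p 0.05).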

Other observations

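Among replication genes outside the 52, LPS calls were no more frequent than over all tested genes. Of 36 tested, 10 were called in wild type and 11 in knockout, where 44.6% and 38.1% of all tested genes were. Some were called in both genotypes, among them Donson and Dctpp1, which fell, Pole4, which rose, and Dck, Timeless, Top1 and Dnmt1. Dck, the kinase that salvages deoxycytidine, was at 254 and 302 in KO LPS, 236 and 193 in WT LPS, 35.1 in KO M0 and 24.7 and 34.2 TPM in WT M0, and rose by 2.83 in wild type (SE 0.20, adjusted p 1.7e-06) and by 2.94 in knockout (SE 0.24, adjusted p 7.4e-06). All 4 LPS libraries lay far above the untreated ones. Timeless also rose in both, by 1.65 (SE 0.32, adjusted p 0.002) and 3.35 (SE 0.40, adjusted p 9.2e-05). Top1, which relaxes DNA ahead of the fork, fell by 0.99 (SE 0.17, adjusted p 0.0011) and 1.19 (SE 0.21, adjusted p 0.0015), and Dnmt1, the maintenance DNA methyltransferase that works with Uhrf1, by 0.88 (SE 0.18, adjusted p 0.0029) and 0.63 (SE 0.22, adjusted p 0.048). Dnmt1 was at 10.8 and 13.6 TPM in WT LPS and 15.5 in both KO LPS libraries, against 22.5 to 24.6 untreated. Chek1, the checkpoint kinase that Clspn serves, lay below the tested level, at 0.113 and 0.162 TPM in WT LPS, 1.80 and 1.39 in KO LPS and between 0.252 and 0.299 untreated. These genes were picked after their values were seen.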
